A study of Mus musculus with 6 samples.

Results

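The 40 genes described here encode proteins that copy DNA at the replication fork, supply its building blocks, rebuild chromatin behind the fork and repair the copy. They are a list of 40 of the 47643 gene IDs in the count tables, drawn up by function with earlier results of these data known. By role, 25 belong to the fork, 5 to nucleotide supply, 5 to chromatin copying and 5 to repair. RNA was measured by 3′-end sequencing in mouse submandibular salivary gland organoids (mSGOs), which are multicellular structures grown in Matrigel from single cells of the adult gland. Organoids from 3 C57BL/6 mice, 8 to 12 weeks old, were collected at day 5 and again at day 7 of culture, giving 3 libraries per day. All organoids were untreated and non-irradiated, and all grew in WRY medium, which holds EGF, FGF2, insulin, dexamethasone, the kinase inhibitor Y27632 and medium conditioned with Wnt3a and R-spondin1. Both days therefore share the same genotype, medium and mice, and differ in the time of culture.

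At a replication fork, the CMG helicase, made of the MCM ring, CDC45 and the GINS complex, unwinds the parental strands and RPA coats the single strands that result. Polymerase alpha and its primase lay down short primers, replication factor C (RFC) loads the sliding clamp PCNA, and polymerases epsilon and delta extend the leading and lagging strands. Ribonucleotide reductase and thymidylate synthase provide deoxynucleotides, chromatin assembly factor 1 (CAF-1) places histones on new DNA, UHRF1 and DNMT1 copy DNA methylation, and mismatch and recombination repair correct faults. Many of these genes are transcribed around S phase under E2F factors, and in the salivary gland, as in other epithelia, they are read as a sign of dividing cells.

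The libraries held between 1918198 and 2837397 counts in genes, so 3 counts in a library corresponded to 1.04 to 1.51 CPM, counts scaled to 1000000 per library. All 40 genes passed the filter on low counts, which kept 15792 genes that had 1 count or more in 2 or more libraries. Reads outside genes or not assigned to 1 gene made up 13.7% to 14.4% of day 5 libraries and 9.12% to 9.74% of day 7 libraries. Epithelial markers (*Epcam*, *Cdh1*) summed to 1450 to 2030 CPM per library, and basal duct keratins (*Krt14*, *Krt5*) to 7960 to 15600 CPM. Of 6 macrophage markers, 4 (*Csf1r*, *Adgre1*, *Lyz2* and *C1qa*) were at 0 in every library, and the list, nearly all *Cd68*, summed to 0.36 to 1.65 CPM in day 5 libraries and 3.45 to 6.85 CPM in day 7 libraries. Endothelial and erythroid markers each summed to at most 1.00 CPM in any library, and fibroblast markers, 3 of 6 at 0 throughout (*Col1a2*, *Col3a1* and *Lum*), to 0.36 to 0.502 CPM at day 5 and 1.04 to 1.96 CPM at day 7. The 5 luminal duct markers summed to 1810 to 1920 CPM and then to 1880 to 2890 CPM, with *Cldn4* (log2 fold change 1.89, edgeR adjusted p = 0.000149) and *Clic1* (0.94, adjusted p = 0.00753) higher and *Krt8* lower (-0.65, adjusted p = 0.0374) at day 7. The 6 stem/progenitor markers summed to 2460 to 2890 CPM and then to 2010 to 3510 CPM, with *Cd24a* higher (0.76, edgeR adjusted p = 0.0138). The share of unassigned reads, the macrophage and fibroblast sums and these single markers moved with the day, and their part in the results below was not tested. In their last 300 bases, 6 of the 40 genes lie wholly within a transcript of the opposite strand, 14 share 56 to 226 bases with another transcript and 20 share none, and reads from shared stretches cannot be assigned with certainty.

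RNA of the replication genes was lower at day 7 than at day 5. Of the 40, 20 fell past the threshold, an adjusted p under 0.05 by the edgeR quasi-likelihood test over all genes and a log2 fold change under -0.6, beside 4.82% of all 15792 genes tested. None rose: 0 of 40 were past the threshold in the upward direction by edgeR, DESeq2 or limma voom, where 7.22% of all genes were by edgeR, and 0 had an unadjusted p under 0.05 with a higher level. The median log2 fold change was -0.83 over the 40 genes and -0.01 over all genes tested. The summed level of the 40 was 2540, 2608 and 2505 CPM in the day 5 libraries of mice 1, 2 and 3, and 1542, 1238 and 1818 CPM in their day 7 libraries. The sums did not overlap, and the day 7 mean of 1533 ± 290 CPM (SD, n = 3) was 60.1% of the day 5 mean of 2551 ± 52.4 CPM (SD, n = 3). Gene by gene, all 3 day 7 libraries lay below all 3 day 5 libraries in 30 of the 40, beside 15.5% of all genes tested, and the 20 that passed the threshold were among these 30. In such bulk RNA, fewer dividing cells and less RNA per cell cannot be told apart.

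The number of calls depended on single libraries. It was 10, 9 and 9 without the day 5 library of mouse 1, 2 or 3, and 20, 10 and 28 without the day 7 library of mouse 1, 2 or 3. A set of 7 genes, *Prim1*, *Pole*, *Pole2*, *Rpa1*, *Rrm2*, *Tyms* and *Exo1*, was past the threshold in the fit over all libraries and in all 16 alternative fits. With a term for the mouse, a paired fit or block, 25 were called.

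**Figure D1:**
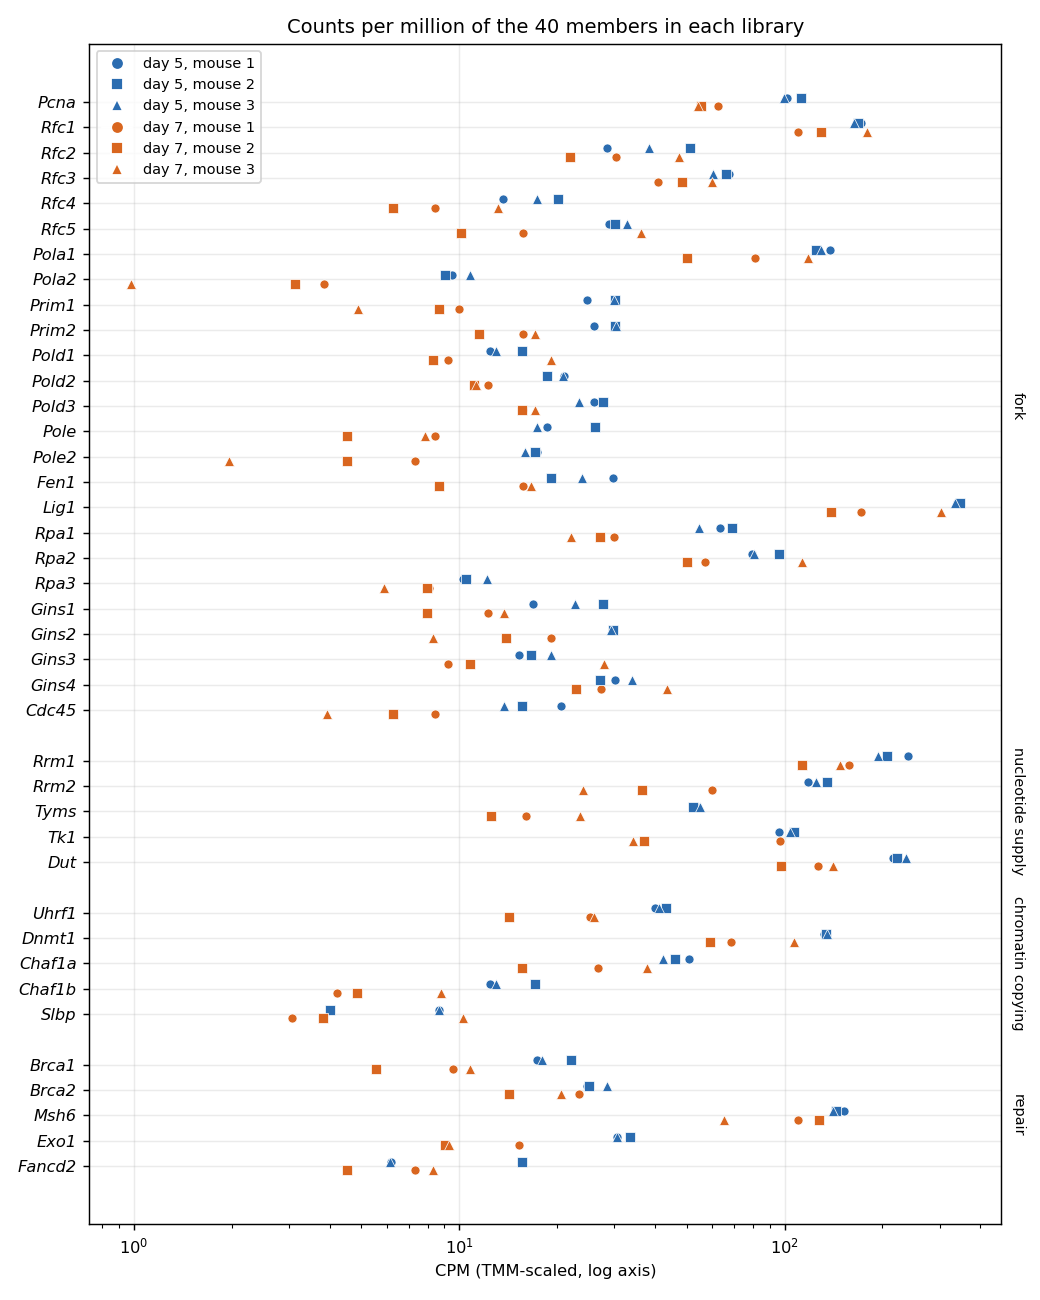
CPM of each of the 40 genes (rows, grouped by role) in each library on a log axis, with day 5 in blue, day 7 in orange and 1 marker shape per mouse. *Lig1* had the highest level on both days, and the day 7 markers lie to the left of all day 5 markers in 30 genes.

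**Figure D2:**
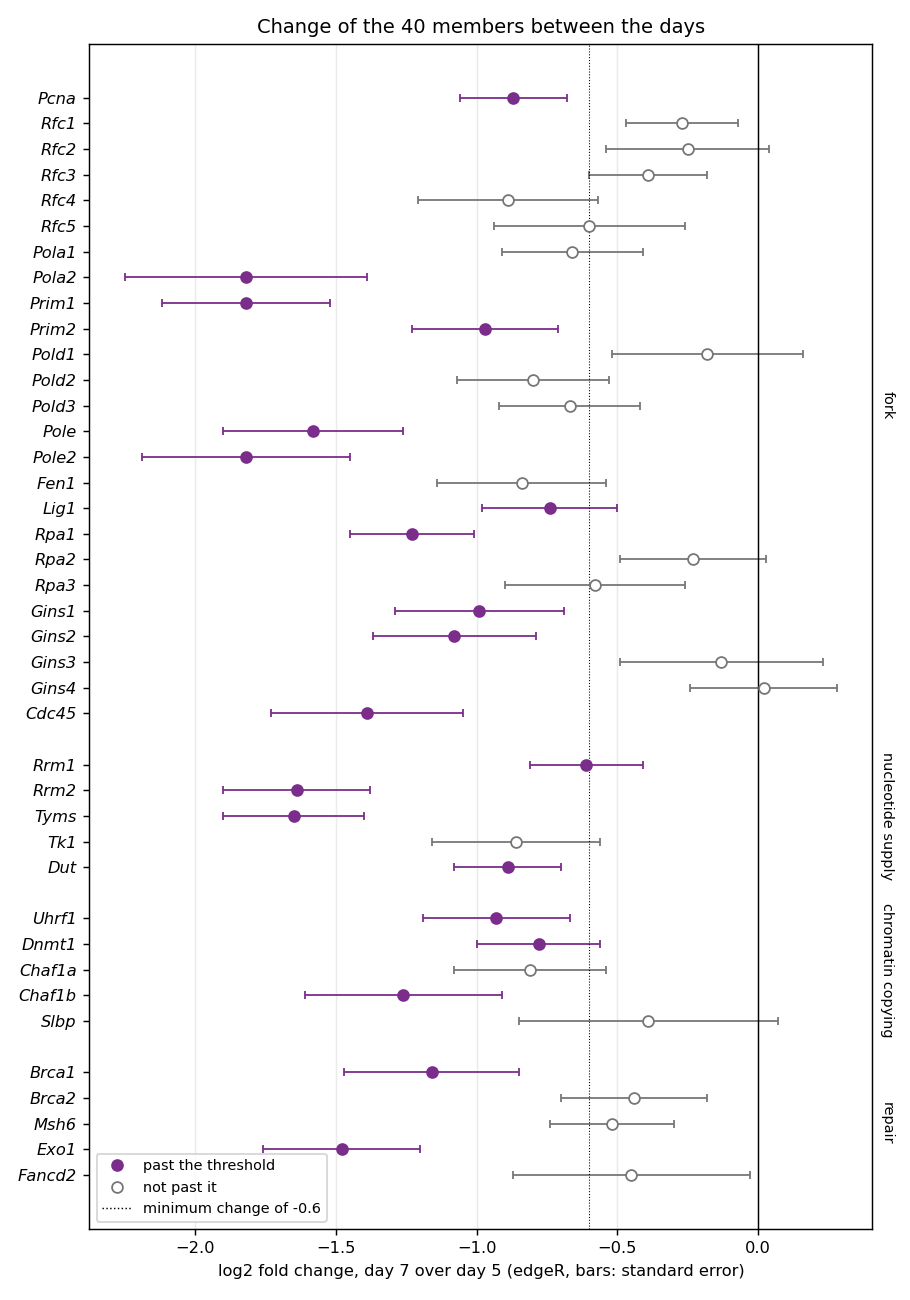
Log2 fold change of day 7 over day 5 for each gene (rows, grouped by role), with bars of 1 standard error from the edgeR fit. Filled points mark the 20 genes past the threshold, and the values run from -1.82 to 0.02.

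Since 20 of the 40 genes fell, the promoters of the list were searched for the letters of sites that cell-cycle genes are known to share. Promoter sequences of RefSeq (mouse build GRCm38.p6), from 250 bases before the first transcribed base to 50 bases from it onward, were at hand for 32 of the 40 genes, as 39 promoters. E2F letters (TTTCCCGC, TTTGGCGC, TTCCCGCC or TTGGCGGG on either strand, where 2 of them can overlap) stood in 18 of the 39 (46.2%), beside 4.03% of all 32851 promoters and 7.03% of the 13669 promoters of genes tested. In the 250 bases before the start alone they stood in 9 of 39 (23.1%), beside 3.38% of all and 5.93% for genes tested. CCAAT letters, the box of the factor NF-Y, stood in 53.8% of these promoters and 37.4% of all, or 37.5% for genes tested. The CHR letters TTTGAA or TTCGAA stood in 15.4% and 19.2%, or 14.2% for genes tested. The Sp/KLF box GGGCGGGG stood in 35.9% and 17.6%, or 31.5% for genes tested. E2F letters were present for 7 of the 15 genes that fell and 11 of the 17 others with a promoter.

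The 6 promoters below are those of the 5 genes called in every fit that have an entry, and that of *Gins3*, shown as the gene with the smallest fold change among those with an entry. Each runs 5′ to 3′ on the strand of its gene for 180 bases, of which the last 30 are transcribed, and capitals mark the E2F and CCAAT letters. They lie at chr10:128015065-128015244 (plus strand, *Prim1*), chr12:69228161-69228340 (minus strand, *Pole2*), chr11:75348354-75348533 (minus strand, *Rpa1*), chr12:24708104-24708283 (plus strand, *Rrm2*), chr5:30073596-30073775 (minus strand, *Tyms*) and chr8:95633409-95633588 (plus strand, *Gins3*).
Prim1: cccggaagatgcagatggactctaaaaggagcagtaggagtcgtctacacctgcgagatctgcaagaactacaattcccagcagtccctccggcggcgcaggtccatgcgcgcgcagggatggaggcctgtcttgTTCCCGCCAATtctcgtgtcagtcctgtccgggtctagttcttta
Pole2: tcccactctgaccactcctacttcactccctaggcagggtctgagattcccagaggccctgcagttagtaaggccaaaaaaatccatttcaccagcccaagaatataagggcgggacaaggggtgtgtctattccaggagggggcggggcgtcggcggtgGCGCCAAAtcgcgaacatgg
Rpa1: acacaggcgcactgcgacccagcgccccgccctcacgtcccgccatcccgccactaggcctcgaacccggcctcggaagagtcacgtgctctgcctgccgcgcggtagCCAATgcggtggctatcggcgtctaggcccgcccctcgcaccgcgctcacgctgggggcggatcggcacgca
Rrm2: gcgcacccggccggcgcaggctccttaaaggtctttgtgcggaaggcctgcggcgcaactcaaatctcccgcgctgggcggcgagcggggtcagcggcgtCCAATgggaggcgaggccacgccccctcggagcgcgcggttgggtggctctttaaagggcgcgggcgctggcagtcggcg
Tyms: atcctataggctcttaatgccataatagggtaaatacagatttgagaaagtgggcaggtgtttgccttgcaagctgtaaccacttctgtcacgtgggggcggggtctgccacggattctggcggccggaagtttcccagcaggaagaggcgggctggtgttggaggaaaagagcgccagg
Gins3: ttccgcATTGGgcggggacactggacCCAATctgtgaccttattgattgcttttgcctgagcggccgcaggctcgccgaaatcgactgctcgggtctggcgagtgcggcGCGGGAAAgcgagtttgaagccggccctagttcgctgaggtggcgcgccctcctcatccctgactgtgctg
*Prim1* holds 2 overlapping E2F matches joined to a CCAAT box between 15 and 5 bases before the start, and *Pole2* has an E2F match between bases 10 and 17 after it. *Rpa1* and *Rrm2* carry a CCAAT box 42 and 50 bases before the start and no E2F letters, and *Tyms* holds neither in this window. *Gins3*, which did not pass the threshold, has an E2F match and 2 CCAAT boxes. These matches are letters and not measured binding, and an absent match says only that the letters are not in the window.

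**Figure D3:**
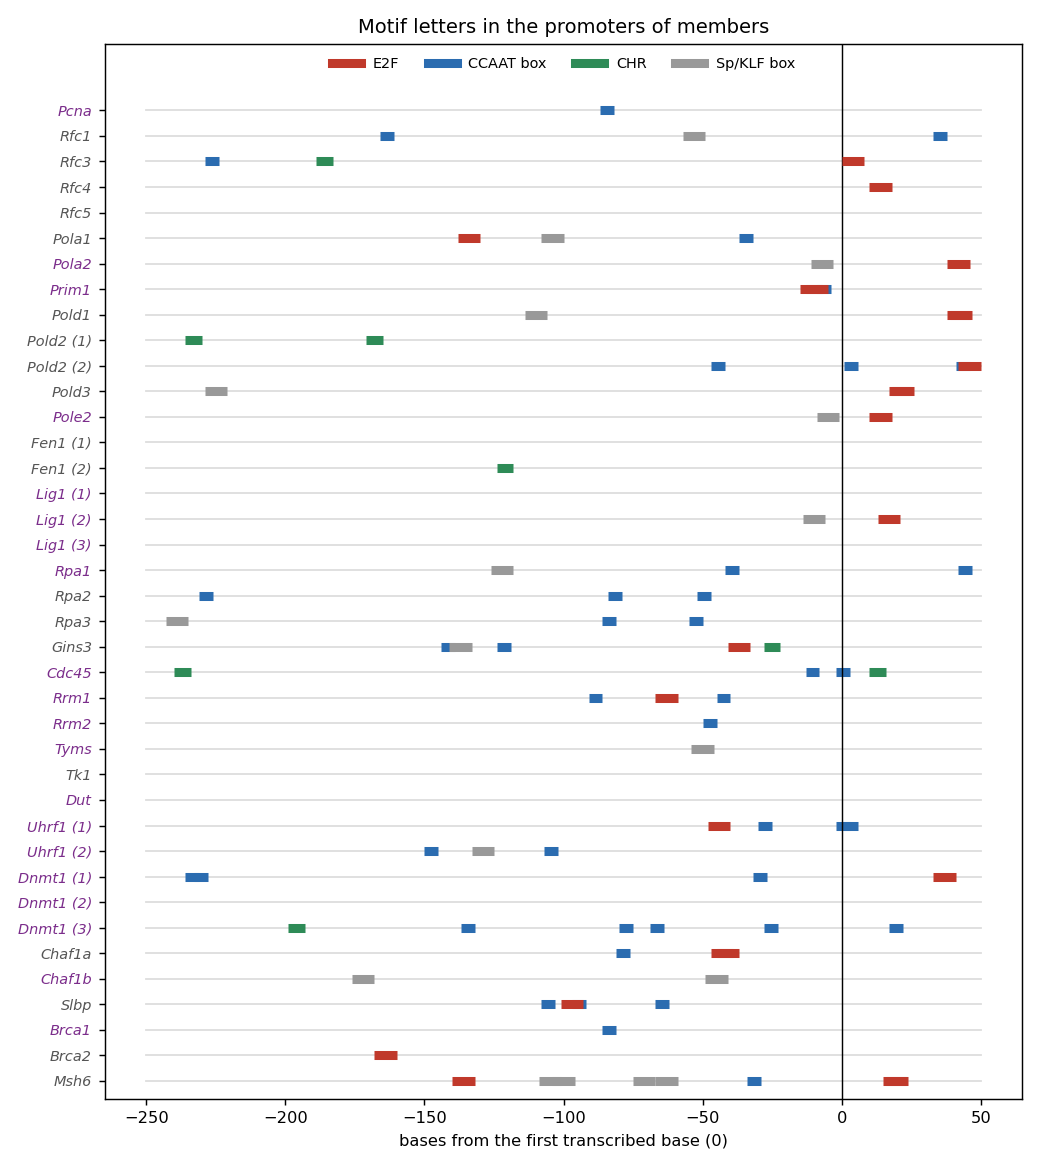
Motif letters in the 39 promoters (rows) of 32 genes by distance from the first transcribed base at 0, with gene names in purple for genes past the threshold and in grey for the others. E2F letters (red) stand in 18 rows and CCAAT letters (blue) in 21, and numbers in brackets separate promoters of the same gene.

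The primer-making complex showed some of the largest falls. *Prim1* (ENSMUSG00000025395, chr10:127851031-127867682 in GRCm39, protein-coding), the catalytic subunit of primase, stood at 24.7, 30.1 and 29.9 CPM at day 5 and at 9.97, 8.68 and 4.90 CPM at day 7. The days were well apart, and the level fell from 28.3 ± 3.04 to 7.85 ± 2.64 CPM (SD, n = 3), which is -1.82 ± 0.30 (SE) in log2 fold change with an edgeR adjusted p of 0.000517. *Pola2*, the regulatory subunit of polymerase alpha, was at 9.49, 9.04 and 10.8 CPM and then at 3.84, 3.12 and 0.979 CPM, and fell equally far (-1.82 ± 0.43, edgeR adjusted p = 0.00832). Its lowest value is 2 counts, below the limit that a count of 0 allows. *Prim2*, the large primase subunit, was less reduced (26.0, 30.1 and 30.3 against 15.7, 11.5 and 17.1 CPM, log2 fold change -0.97, edgeR adjusted p = 0.0198). *Pola1*, the catalytic subunit, was abundant and spread widely at day 7, with 138, 125 and 129 CPM against 80.9, 50.0 and 118 CPM, and missed the threshold (-0.66, edgeR adjusted p = 0.0898). The 4 genes summed to 54.8% of their day 5 level. The edgeR call on *Prim2* was lost without any 1 day 5 library (adjusted p 0.0594 to 0.111) and without the day 7 library of mouse 2 (0.0982). That on *Pola2* was lost without the day 5 library of mouse 3 (0.0626). By edgeR, *Pola1* passed without the day 7 library of mouse 3 (log2 fold change -1.0, adjusted p = 0.00165) and in the fit blocked by mouse (-0.73, adjusted p = 0.0170). It also passed by edgeR with library totals (0.0416) or without the filter (0.0224), and with limma voom (-0.76, adjusted p = 0.0394), but not with DESeq2.

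Of the 5 helicase genes, 3 fell. *Cdc45*, which joins the MCM ring to GINS, had 20.6, 15.6 and 13.7 CPM at day 5 and 8.44, 6.25 and 3.92 CPM at day 7, with no overlap (log2 fold change -1.39 ± 0.34, edgeR adjusted p = 0.0101). *Gins2* had 29.7, 29.6 and 29.2 CPM and then 19.2, 13.9 and 8.32 CPM (-1.08, edgeR adjusted p = 0.0189), and *Gins1* had 16.9, 27.6 and 22.7 CPM and then 12.3, 7.98 and 13.7 CPM (-0.99, edgeR adjusted p = 0.0370). The other 2 subunits of the same tetramer overlapped between the days. *Gins3* was at 15.3, 16.6 and 19.1 CPM and then at 9.21, 10.8 and 27.9 CPM (-0.13, edgeR adjusted p = 0.870). *Gins4* was at 30.1, 27.1 and 33.9 CPM and then at 27.2, 22.9 and 43.6 CPM (0.02, edgeR adjusted p = 0.990), the 1 gene of the 40 whose fitted change was above 0, and its sign turned under library totals, upper quartile scaling, limma voom and thinned counts, and without the day 5 library of mouse 2 (-0.05) or the day 7 library of mouse 3 (-0.29). In both, the day 7 library of mouse 3 was the highest of all 6. *Gins3* turned to 0.14 without the day 7 library of mouse 1 and to 0.10 without that of mouse 2, and stood at -0.77 (edgeR adjusted p = 0.0539) without that of mouse 3, where *Gins2* was at -0.84 (edgeR adjusted p = 0.0156). No difference between the subunits was tested. *Gins1* and *Gins2* lost their edgeR call without any 1 day 5 library (adjusted p 0.0539 to 0.205) and without the day 7 library of mouse 2 (0.167 and 0.0765), and *Cdc45* without the day 5 library of mouse 1 or 2 (0.0929 and 0.0514) or that day 7 library (0.0542). *Gins1* also missed with DESeq2 (adjusted p = 0.0594) and limma voom (adjusted p = 0.0654). The last 300 bases of *Gins2* lie wholly within *Gse1* on the opposite strand.

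The clamp fell and its loader did not pass the threshold. *Pcna* (ENSMUSG00000027342, chr2:132091082-132095234 in GRCm39), the sliding clamp that holds polymerases on DNA, was at 102, 112 and 99.8 CPM at day 5 and at 62.5, 55.2 and 54.3 CPM at day 7. The days were apart and the level fell from 105 ± 6.43 to 57.4 ± 4.50 CPM (SD, n = 3), which is -0.87 ± 0.19 (SE) in log2 fold change with an edgeR adjusted p of 0.00581. Without the day 5 library of mouse 2 it was -0.81 with an edgeR adjusted p of 0.0595. Of the 5 RFC subunits, 0 were past the threshold by edgeR, DESeq2 or limma voom and 1, *Rfc4*, had an unadjusted p under 0.05 by edgeR, and their sum stood at 78.9% of day 5. *Rfc1*, the large subunit, was at 172, 168 and 163 CPM and then at 110, 129 and 179 CPM (log2 fold change -0.27, edgeR adjusted p = 0.419), so that mouse 3 was above its day 5 level and the others below. *Rfc5* likewise ran from 28.9, 30.1 and 32.8 CPM to 15.7, 10.1 and 36.2 CPM (-0.60, edgeR adjusted p = 0.285). *Rfc3* and *Rfc4* did not overlap between the days, with log2 fold changes of -0.39 and -0.89, and *Rfc2* overlapped (-0.25). Without the day 7 library of mouse 3, *Rfc4* (-1.20, edgeR adjusted p = 0.00993) and *Rfc5* (-1.25, edgeR adjusted p = 0.00208) were past the threshold, and *Rfc4* was also in the fit blocked by mouse (-0.90, edgeR adjusted p = 0.0366). The ends of *Rfc4* and *Rfc5* lie wholly within *Eif4a2* and *Wsb2* on the opposite strand, and whether the counting used strand is not given.

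Both polymerase epsilon genes of the list fell, and the polymerase delta genes of the list did not pass the threshold. *Pole*, the catalytic subunit of the leading-strand polymerase, was at 18.6, 26.1 and 17.3 CPM at day 5 and at 8.44, 4.51 and 7.83 CPM at day 7 (log2 fold change -1.58 ± 0.32, edgeR adjusted p = 0.00334). *Pole2*, its partner in the complex, was at 17.3, 17.1 and 15.9 CPM and then at 7.29, 4.51 and 1.96 CPM (-1.82 ± 0.37, edgeR adjusted p = 0.00305). Together they stood at 30.8% of their day 5 sum, which is not that of the whole complex. Its other genes, *Pole3* and *Pole4*, lie outside the list and did not pass the threshold. Their mean went from 111 to 83.3 CPM (-0.42, edgeR adjusted p = 0.166) and from 29.8 to 21.5 CPM (-0.48, edgeR adjusted p = 0.228). In both, the days did not overlap. *Pole2* overlaps an exon of *Gm49384* on its own strand, which holds 194 of its last 300 bases, so its count is uncertain. Of *Pold1*, *Pold2* and *Pold3*, 0 were past the threshold by edgeR, DESeq2 or limma voom and 2 had an unadjusted p under 0.05 by edgeR, with a sum at 67.1% of day 5. That sum leaves out the delta gene *Pold4*, which lies outside the list. *Pold4* rose past the threshold, from a mean of 17.3 to 45.7 CPM (1.40, edgeR adjusted p = 0.000857). *Pold2* did not overlap between the days, with 21.0, 18.6 and 20.9 CPM against 12.3, 11.1 and 11.3 CPM, yet missed the threshold (-0.80, edgeR adjusted p = 0.0570), as did *Pold3* (-0.67, edgeR adjusted p = 0.0930). The catalytic *Pold1* overlapped (12.4, 15.6 and 13.0 against 9.21, 8.33 and 19.1 CPM) and its log2 fold change of -0.18 turned to 0.04 without the day 7 library of mouse 2 and was -0.63 (edgeR adjusted p = 0.136) without that of mouse 3. *Pold2* (-0.79, edgeR adjusted p = 0.0321) and *Pold3* (-0.71, edgeR adjusted p = 0.0367) passed without the day 7 library of mouse 3, and *Pold2* passed under upper quartile scaling (edgeR adjusted p = 0.0467), library totals (0.0357) or filterByExpr (0.0412). Whether the fall of *Pole* and *Pole2* differed from that of the other epsilon genes or of the delta genes was not tested.

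Of the strand-coating RPA genes 1 fell. *Rpa1*, the largest subunit and the main DNA-binding one, was at 63.5, 68.8 and 54.4 CPM at day 5 and at 29.9, 27.1 and 22.0 CPM at day 7, well apart, with -1.23 ± 0.22 (SE) in log2 fold change and an edgeR adjusted p of 0.00123. *Rpa2* was at 79.6, 95.9 and 80.3 CPM and then at 56.8, 50.0 and 113 CPM, so that the days overlapped through mouse 3 (-0.23, edgeR adjusted p = 0.623), and without that library it passed the threshold (-0.67, edgeR adjusted p = 0.00914). *Rpa3*, the smallest subunit, did not overlap (10.3, 10.5 and 12.2 against 8.05, 7.98 and 5.87 CPM) and missed the threshold (-0.58, edgeR adjusted p = 0.263).

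Lagging-strand fragments are trimmed by the flap nuclease FEN1 and sealed by DNA ligase 1. *Lig1* (ENSMUSG00000056394, chr7:13011239-13045350 in GRCm39) had the highest level of the 40 on both days, on a 3′-end scale that does not depend on gene length. It was at 340, 346 and 335 CPM at day 5 and at 172, 139 and 302 CPM at day 7, with mouse 3 close to its day 5 level. The mean went from 340 ± 5.62 to 204 ± 86.1 CPM (SD, n = 3), just past the threshold (log2 fold change -0.74 ± 0.24, edgeR adjusted p = 0.0493). That call was lost without any 1 day 5 library (adjusted p 0.147 to 0.184), without the day 7 library of mouse 1 (0.0774) or mouse 2 (0.214), with filterByExpr (0.0746) and with thinned counts (0.0958), all by edgeR. *Fen1* had 29.7, 19.1 and 23.8 CPM and then 15.7, 8.68 and 16.6 CPM, with no overlap and no call (-0.84, edgeR adjusted p = 0.0749). It passed without the day 7 library of mouse 1 (-0.97, edgeR adjusted p = 0.0479) or mouse 3 (-1.0, edgeR adjusted p = 0.0234) and in the fit blocked by mouse (-0.84, edgeR adjusted p = 0.0320). Of the last 300 bases of *Fen1*, 226 match the antisense transcript *Gm10143*.

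Nucleotide supply fell in 4 of its 5 genes, and their sum went from 719.6 to 375.0 CPM, 52.1% of day 5. *Tyms* (ENSMUSG00000025747, chr5:30263198-30278633 in GRCm39), thymidylate synthase, which makes the thymine nucleotide, was at 54.0, 52.2 and 55.1 CPM at day 5 and at 16.1, 12.5 and 23.5 CPM at day 7. It fell by 1.65 on the log2 scale (SE 0.25, edgeR adjusted p = 0.000310), the smallest adjusted p of the 40. *Rrm2* (ENSMUSG00000020649, chr12:24757811-24764145 in GRCm39), the small subunit of ribonucleotide reductase and the one known to be limited to S phase, was at 118, 135 and 125 CPM and then at 59.8, 36.5 and 24.0 CPM. It fell from 126 ± 8.13 to 40.1 ± 18.2 CPM (SD, n = 3), which is -1.64 ± 0.26 (SE) in log2 fold change with an edgeR adjusted p of 0.000383. Its last 300 bases share 212 with *Gm48455* and those of *Tyms* share 154 with the pseudogene *Tyms-ps*, so reads of these copies are uncertain.

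*Rrm1*, the large reductase subunit, was at 239, 206 and 194 CPM at day 5 and at 158, 113 and 148 CPM at day 7, a smaller change (-0.61 ± 0.20, edgeR adjusted p = 0.0497). *Dut*, which removes dUTP so that uracil is not built into DNA, was at 215, 221 and 237 CPM and then at 127, 97.2 and 141 CPM (-0.89 ± 0.19, edgeR adjusted p = 0.00537). *Tk1*, the thymidine salvage kinase, was at 96.1, 107 and 104 CPM and then at 97.0, 37.1 and 34.3 CPM. At day 7, mouse 1 was at its day 5 level and mice 2 and 3 were far below theirs, so the days overlapped and the gene missed the threshold (-0.86 ± 0.30, edgeR adjusted p = 0.0686). Without the day 7 library of mouse 1 its log2 fold change was -1.51 (edgeR adjusted p = 3.97e-05), and in the fit blocked by mouse it was -1.01 (edgeR adjusted p = 0.000552). *Tk1* also passed with limma voom (-1.02, adjusted p = 0.0208), and by edgeR with library totals (0.0347) or without the filter (0.00202), but not with DESeq2. *Rrm1* lost its edgeR call without any 1 day 5 library (adjusted p 0.127 to 0.225) and without the day 7 library of mouse 2 (0.184), and *Dut* without the day 5 library of mouse 3 (0.0524).

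Chromatin copying fell in 3 of 5 genes, with a sum at 56.9% of day 5. *Uhrf1*, which reads half-methylated DNA and brings DNMT1 to it, was at 40, 43.2 and 41.1 CPM at day 5 and at 25.3, 14.2 and 25.9 CPM at day 7 (log2 fold change -0.93 ± 0.26, edgeR adjusted p = 0.0228). *Dnmt1*, the maintenance methyltransferase, was at 132, 134 and 135 CPM and then at 68.3, 59.0 and 107 CPM (-0.78 ± 0.22, edgeR adjusted p = 0.0250). Its day 5 values were nearly equal and its day 7 values spread widely, with mouse 3 highest.

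The CAF-1 subunit gene *Chaf1b* was at 12.4, 17.1 and 13.0 CPM at day 5 and at 4.22, 4.86 and 8.81 CPM at day 7 (-1.26 ± 0.35, edgeR adjusted p = 0.0235). Its partner *Chaf1a* was at 50.7, 46.2 and 42.2 CPM and then at 26.8, 15.6 and 37.7 CPM, with no overlap and no call (-0.81, edgeR adjusted p = 0.0615). It passed without the day 7 library of mouse 3 (-1.13, edgeR adjusted p = 0.00281) and in the fit blocked by mouse (-0.86, edgeR adjusted p = 0.00958). *Chaf1a* also passed with limma voom (-0.91, adjusted p = 0.0374), and by edgeR with library totals (0.0303) or without the filter (0.0164), but not with DESeq2. Its last 300 bases lie within *Ubxn6* on the opposite strand. *Slbp*, which binds the stem-loop of histone mRNA, was low and overlapped, with 8.66, 4.02 and 8.65 CPM against 3.07, 3.82 and 10.3 CPM (-0.39, edgeR adjusted p = 0.640). The calls on *Uhrf1*, *Dnmt1* and *Chaf1b* were each lost without any 1 day 5 library (edgeR adjusted p 0.0652 to 0.144) and without the day 7 library of mouse 2 (0.108, 0.132 and 0.113), and that on *Chaf1b* also without that of mouse 1 (0.0522).

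Of the 5 repair genes 2 fell, and the median log2 fold change was -0.52. *Exo1*, an exonuclease of mismatch repair and DNA end resection, was at 30.5, 33.6 and 30.6 CPM at day 5 and at 15.3, 9.03 and 9.30 CPM at day 7, far apart (-1.48 ± 0.28, edgeR adjusted p = 0.00166). *Brca1*, which acts in homologous recombination, was at 17.3, 22.1 and 18.0 CPM and then at 9.59, 5.55 and 10.8 CPM (-1.16 ± 0.31, edgeR adjusted p = 0.0191). Its edgeR call was lost without any 1 day 5 library (adjusted p 0.0615 to 0.121) and without the day 7 library of mouse 2 (0.109).

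*Msh6*, the most abundant of the repair genes and part of the mismatch sensor, was at 152, 144 and 141 CPM at day 5 and at 110, 128 and 65.1 CPM at day 7. The days did not overlap, but the change was not past the threshold (log2 fold change -0.52, edgeR adjusted p = 0.147), and here mouse 3 was the lowest. *Brca2*, which also acts in recombination repair, was at 24.7, 25.1 and 28.5 CPM and then at 23.4, 14.2 and 20.6 CPM (-0.44, edgeR adjusted p = 0.308). *Fancd2*, of the crosslink repair pathway, overlapped, with 6.19, 15.6 and 6.12 CPM against 7.29, 4.51 and 8.32 CPM (-0.45, edgeR adjusted p = 0.529), and turned to 0.10 without the day 5 library of mouse 2. The last 300 bases of *Brca2* and *Fancd2* lie wholly within *N4bp2l1* and *Fancd2os* on the opposite strand, and 170 of those of *Msh6* match *Fbxo11*.

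The 3 mice differed in how far the genes moved. Over the 40 genes, the median of log2 day 7 over day 5 (CPM + 1) was -0.72, -1.23 and -0.57 in mice 1, 2 and 3, and the summed day 7 level was 60.7%, 47.4% and 72.6% of that mouse's day 5 level. In mouse 2 all 40 were below their day 5 value, in mouse 1 37, and in mouse 3 31. The 9 genes above their day 5 value in mouse 3 were *Rfc1*, *Rfc2*, *Rfc5*, *Pold1*, *Rpa2*, *Gins3*, *Gins4*, *Slbp* and *Fancd2*, and 0 of them were past the threshold by edgeR. The same mouse also held the largest single fall, *Pola2* at -2.58, with *Pole2* at -2.51, *Prim1* at -2.39 and *Rrm2* at -2.33. Mouse 3 was thus high for part of the fork machinery and lowest for another part, while mouse 2 was the lowest day 7 library in 24 genes.

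Fork genes as a sum stood at 86.3% of day 5 in mouse 3 against 58.8% and 48.6% in mice 1 and 2, whereas nucleotide genes stood at 51.8% in mouse 3 against 63.4% and 41.1%. Spread between mice was larger at day 7: the median coefficient of variation of the 40 genes was 8.85% at day 5 and 32.4% at day 7, and it was larger at day 7 in 37 genes, all but *Pold2*, *Pold3* and *Fancd2*. Over all genes the biological coefficient of variation fitted by edgeR was 0.09 at day 5 and 0.29 at day 7, so this difference was not limited to replication genes.

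**Figure D4:**
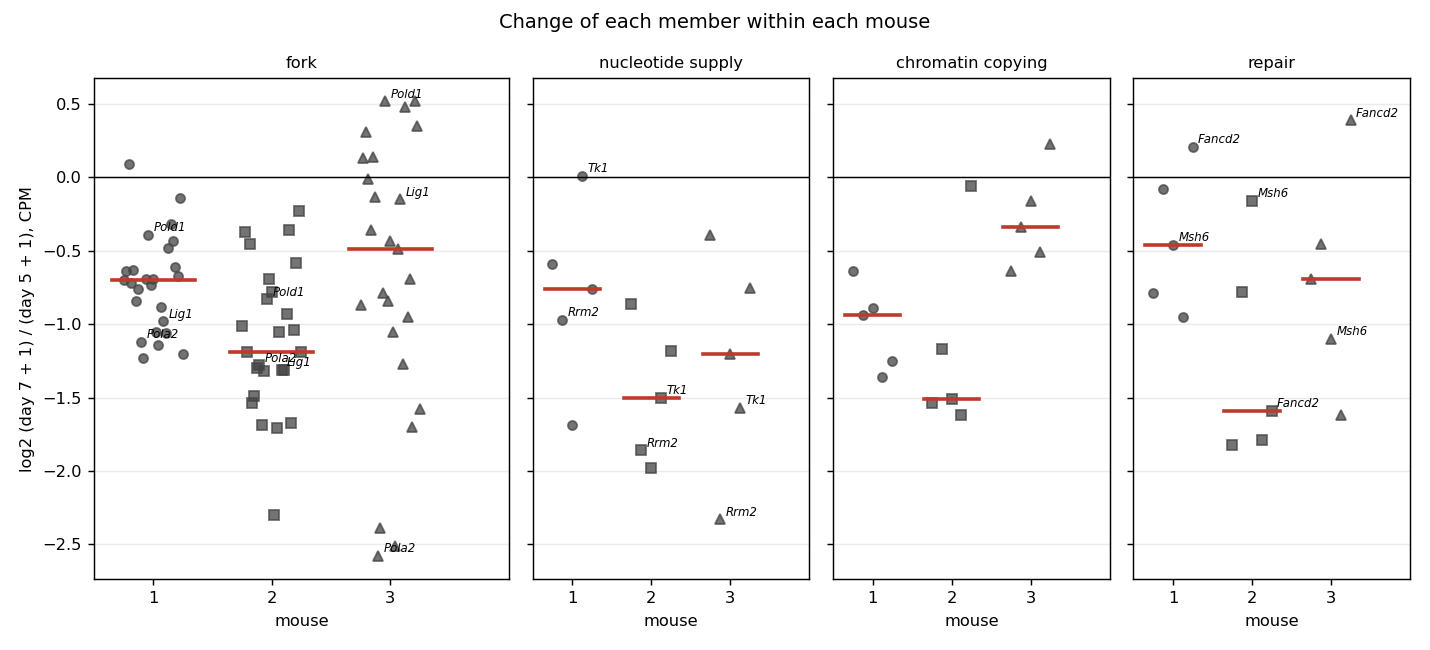
Log2 ratio of day 7 to day 5 (CPM + 1 on each side) of every gene within each mouse, 1 panel per role, with red lines at the median of the role in that mouse. Points of mouse 2 all lie below 0, while those of mouse 3 run from -2.58 to 0.52.

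By amount, abundant genes made up the largest parts of the fall, although 39 of the 40 genes had a fitted change below 0. Of the net loss in summed CPM, *Lig1* made up 13.4%, *Dut* 10.1%, *Rrm2* 8.43%, *Rrm1* 7.17% and *Dnmt1* 5.47%, together 44.6%. At day 5 the same genes already held 340, 225, 126, 213 and 134 CPM of the mean sum of 2551 CPM. The 3 genes with the largest fall per gene, *Prim1*, *Pola2* and *Pole2*, made up 2.00%, 0.700% and 1.19%.

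The balance between partners was compared as the log2 ratio of their levels (CPM + 1) in each library, for 6 pairs. *Rrm2* to *Rrm1*, the small to the large reductase subunit, was -1.01, -0.61 and -0.63 at day 5 and -1.39, -1.61 and -2.57 at day 7. The ratio was lower in every day 7 library, with a mean difference of -1.11 and p = 0.1 in an exact permutation test (two-sided, n = 3 per day, adjusted p = 0.3 over the 6 ratios), where 0.1 is the smallest p this design allows. *Brca2* to *Brca1* was 0.49, 0.18 and 0.63 and then 1.20, 1.22 and 0.87, higher at day 7 by 0.66 with no overlap (exact permutation p = 0.1, adjusted 0.3). The other 4 pairs overlapped. *Chaf1b* to *Chaf1a* changed by -0.31 and *Uhrf1* to *Dnmt1* by -0.12. *Rfc4* to *Rfc1* changed by -0.55, and *Pole2* to *Pole* by -0.32, which became 0.17 without the day 7 library of mouse 3. None of the 6 could reach an adjusted p under 0.05.

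**Figure D5:**
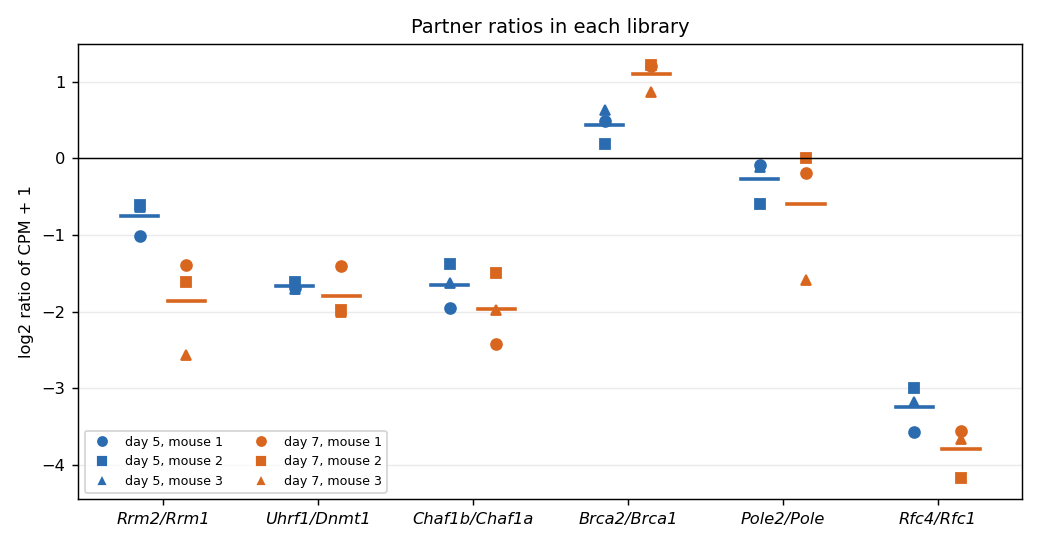
Log2 ratio of CPM + 1 for 6 pairs of partner genes in each library, day 5 in blue and day 7 in orange, with 1 marker shape per mouse and bars at the mean of each day. The days are apart for *Rrm2*/*Rrm1* (means -0.75 and -1.86) and *Brca2*/*Brca1* (0.43 and 1.10).

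Set beside the genes by which the study marks cycling cells, the replication genes covered a wide range. *Mki67*, a nuclear protein of dividing cells, stood at a mean of 269 CPM and then 101 CPM (-1.41 on the log2 scale, edgeR adjusted p = 0.000459), and *Top2a*, the topoisomerase that separates sister chromosomes, at 795 CPM and then 388 CPM (-1.04, edgeR adjusted p = 0.00184). Of the 40 genes, 12 had a lower log2 fold change than *Top2a* and 28 a higher one, and 7 had a lower one than *Mki67* and 33 a higher one. These are positions on the same fitted scale, and no difference from *Mki67* or *Top2a* was tested.

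A wider list of 135 other genes of the same 4 roles gave the surrounding pathway. Its genes named from here on kept their call in the fits without 1 library. Of the 134 that were tested, 40 fell and 1 rose, with a median log2 fold change of -0.52. Without the day 5 library of mouse 2 or 3, 25 and 26 of them fell. Among 25 further fork genes 11 fell and 1 rose (median -1.07). *Wdhd1*, which ties polymerase alpha to the helicase, was at 41.2, 28.1 and 45.4 CPM at day 5 and at 15, 5.55 and 12.7 CPM at day 7 (-1.81, edgeR adjusted p = 0.00111), and *Tipin*, of the fork protection complex, at 161, 177 and 154 CPM and then at 87.1, 61.1 and 29.4 CPM (-1.46, edgeR adjusted p = 0.00169). *Pold4*, the smallest subunit of polymerase delta, moved the other way, from 14.4, 17.6 and 19.8 CPM to 39.1, 49.0 and 49.0 CPM (1.40 ± 0.24, edgeR adjusted p = 0.000857). It was the 1 gene of the list that rose, and its 3 partners in the complex had fitted changes below 0.

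Differences between the roles of the wider list were not tested, and over all genes 4.82% fell and 7.22% rose. Among 31 nucleotide genes 9 fell (median -0.53), with *Gart*, of purine synthesis, from 70.9 ± 12.2 to 27.1 ± 3.60 CPM (SD, n = 3, edgeR adjusted p = 0.000474) and *Nme1*, a nucleoside diphosphate kinase, from 231 ± 20.1 to 111 ± 23.7 CPM (SD, n = 3, edgeR adjusted p = 0.00181). Among 23 chromatin genes 5 fell (median -0.37), with the remodeller *Hells* at -1.61 (edgeR adjusted p = 6.85e-05) and the histone chaperone *Asf1b* at -1.41 (edgeR adjusted p = 0.000907). Among 55 repair genes 15 fell (median -0.60), with *Usp1*, the enzyme that removes ubiquitin from FANCD2 and PCNA, at -1.29 (edgeR adjusted p = 0.000292) and the uracil glycosylase *Ung* at -1.58 (edgeR adjusted p = 0.00190).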

How the data were processed

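The authors deposited raw read counts per Ensembl gene ID for each library, made from QuantSeq 3′ reads aligned to GRCm39. The counting tool, its strand setting and the annotation release are not given in the sources used here. Entries that name no gene were left out. Names came from GENCODE vM39, which matched 43465 of 47643 IDs (91.2%). The 40 genes and the wider list were chosen with earlier results of these data known, and the wider list was written from general knowledge.

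Differences of day 7 from day 5 were tested in edgeR 4.0.16 (R 4.3.3, glmQLFTest, two-sided, TMM, day as the only term, Benjamini-Hochberg adjustment over 15792 genes of the 18687 with any count). The threshold, 0.05 for the adjusted p and 0.6 for the size of the log2 fold change, follows the methods of the study. CPM are TMM-scaled. SD and n are over the 3 mice, and intervals of spread therefore reflect 3 animals per day. Named genes were all 40, the 2 smallest p-values per role and direction past the threshold in the wider list, and the cycling genes *Mki67* and *Top2a*. Other genes appear as cell type markers, as sources of shared sequence or, for *Pole3* and *Pole4* of the wider list, as further subunits of polymerase epsilon.

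Libraries with the same mouse number come from the same mouse per the labels. In 8172 genes averaging 10 CPM or more, the correlation of paired libraries' deviations from the mean of their day was 0.14, -0.10 and 0.16 for mice 1, 2 and 3. All pairs of libraries of the same day differed by more than sampling noise (smallest chi-square per degree of freedom 1.99). Alternatives were DESeq2 1.42.0, limma 3.58.1 voom, glmTreat, other scalings and filters, counts thinned to the smallest library, the mouse as a block and each library left out. The last 300 bases of each gene were compared with all transcripts by blastn at 95% identity or more. The edgeR code was run on simulated counts with known changes. These were drawn with the same spread on both days, while the fitted biological coefficient of variation was 0.09 and 0.29. They therefore do not show how the fit behaves when the spread differs by day. Floors cover counting error only. Protein motifs were not analysed here.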

Additional observations from a re-analysis of the deposited data

How the results depend on the processing

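Of the 40 genes, 20 fell in the fit over all libraries, 8 with glmTreat at 0.6, 19 with DESeq2, 22 with limma voom, 25 with library totals, 25 without the filter and 9 to 28 with 1 library left out. Thinned counts lost the calls on *Lig1*, *Gins1*, *Rrm1* and *Brca1*. With glmTreat, all genes past the threshold numbered 166 lower (761 in the main fit) and 456 higher (1140), and the wider list 16 lower (40). Leaving out 1 library gave 285 to 1127 genes lower, 512 to 1449 higher, and 25 to 52 lower in the wider list, with 1 to 2 higher. The wider list had 2 genes higher without the filter and 2 with the mouse as a replicate block. The block called 25 of the 40, adding *Rfc4*, *Pola1*, *Fen1*, *Tk1* and *Chaf1a*, and changed no other call among them. Library totals alone moved the median of all genes to -0.10 and that of the 40 to -0.92. The median of the 40 ran from -1.04 to -0.65 over all settings.

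The sign of *Gins4* turned to -0.08 with library totals, -0.01 with upper quartile scaling, -0.05 with limma voom and -0.16 with thinned counts, and ran from -0.29 to 0.21 with 1 library left out. *Gins3* turned to 0.14 or 0.10 without the day 7 library of mouse 1 or 2 (lowest -0.77), *Pold1* to 0.04 without that of mouse 2 (lowest -0.63), *Fancd2* to 0.10 without the day 5 library of mouse 2 (lowest -0.69), and *Pole2* to *Pole* to 0.17 without the day 7 library of mouse 3 (lowest -0.62). Within-mouse differences of the 6 ratios, an alternative chosen after seeing the data, gave an exact sign-flip p of 0.25 at best. The cause of these changes was not tested. With 2 libraries at day 5, the spread rests on fewer samples. At this depth, values near 3 counts, such as *Pola2* with 2 counts in the day 7 library of mouse 3, are imprecise.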
